A study of Danio rerio with 2 samples.

Results

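The transcripts of 10 genes that encode receptors and core components of the planar cell polarity (PCP) pathway were measured across cell classes of the zebrafish embryo at the onset of gastrulation. They were selected by gene symbol from a list of 27597 genes, not by a measured value, though earlier results of these data were known. The genes are *fzd7a*, *fzd7b*, *ror2*, *ptk7a*, *gpc4*, *vangl2*, *prickle1a*, *prickle1b*, *dvl2* and *dvl3a*. All 10 were found, each under 1 identifier, and all had UMIs (unique molecular identifiers, 1 per captured transcript molecule) in both libraries.

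Whole shield-stage embryos were profiled by droplet single-cell RNA sequencing, with 1 library from wild-type embryos and 1 library from *MZwnt11f2/slb* embryos. The latter lack functional Wnt11f2 (Silberblick), a non-canonical Wnt ligand, from both the mother and the zygote. The strains named in the methods are wild type A2B2 and the *MZwnt11f2/slb* line carrying the tx226 allele, and how many embryos were pooled is not stated in those sources. Both were raised at the same temperature and processed by the same dissociation and fixation protocol, and no other allele or agent is named for either. With 1 library per genotype there is no replicate, so no test was run, and genotype, parents, clutch and library preparation cannot be told apart. Each ratio below therefore compares these 2 libraries, and the exact 95% intervals cover counting error only.

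In the non-canonical Wnt/PCP pathway, Wnt11-type ligands bind Frizzled receptors and co-receptors at the cell surface and recruit Dishevelled to the membrane. Vangl and Prickle form a complex that takes the opposite side of the cell from Frizzled and Dishevelled in polarized epithelia. During zebrafish gastrulation the pathway is known for the directed migration and intercalation of mesodermal cells, through which the body axis narrows and lengthens.

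The median depth was 3874 UMIs in the 8862 wild-type cells, which summed to 37370253 UMIs, and 4595 in the 7911 *MZwnt11f2/slb* cells, which summed to 40025626. The libraries shared 16 cell barcodes. Clustering gave 17 clusters, of which 12 could be named from marker genes, and the 5 clusters left unnamed took up 16.2% of the wild-type library and 24.9% of the other. The 6 classes with at least 50 cells in each library were ectoderm-like (4339 wild-type and 2968 *MZwnt11f2/slb* cells), ventrolateral margin-like (1069 and 995), paraxial mesoderm-like (866 and 854), enveloping layer-like (824 and 770), prechordal plate-like (157 and 251) and yolk syncytial layer-like (139 and 72). The names follow rebuilt clusters, and some of these are mixed. The paraxial mesoderm-like cluster also held raised endoderm markers, with a summed level of 1995 CPM (UMIs per 1000000 UMIs of the same class and library) in wild type and 2439 in *MZwnt11f2/slb*. In the prechordal plate-like cluster the 8 notochord markers summed to 6629 and 6488 CPM. Endoderm markers were raised there as well, at 1457 and 1863 CPM against 483.8 and 769.1 over all cells. The yolk syncytial layer-like cluster was mixed too. Its endoderm markers were raised, with sums of 2449 and 2357 CPM, and its stress response genes summed to 5362 and 3138. The enveloping layer-like cells came mostly from different clusters in the 2 libraries, with 673 wild-type and 0 *MZwnt11f2/slb* cells in one and 1 and 584 in another. Of the ectoderm-like cells, 614 in *MZwnt11f2/slb* and 35 in wild type formed cluster 9, which was led by mitochondrial genes. Cluster 0, also ectoderm-like, held 2046 wild-type and 434 *MZwnt11f2/slb* cells, with median mitochondrial shares of 8.82% and 11.05%. Values of the whole ectoderm-like class therefore compare different mixes of clusters.

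The ligand transcript itself was read first. *wnt11f2* had 3710 and 1659 UMIs in wild type and *MZwnt11f2/slb*, the order used below, which is 99.3 and 41.5 CPM and a log2 ratio (*MZwnt11f2/slb* over wild type, here and in every later ratio) of -1.26 (-1.35 to -1.18). Since the transcript is counted at its 3′ end wherever the coding change lies, this level does not check the mutation. In wild type it was highest in the paraxial mesoderm-like class at 312 CPM, followed by the ventrolateral margin-like class at 244, and lowest in ectoderm-like cells at 10.1. In *MZwnt11f2/slb* those values were 74.2, 121 and 4.77.

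Over all cells, *fzd7a* and *dvl3a* were lower in *MZwnt11f2/slb* by the rule used here, *ror2* and *ptk7a* lay short of it, and the other 6 had log2 ratios between -0.25 and 0.18. A gene was called lower or higher where the ratio was at least 1.5-fold and its interval lay on 1 side of 0, provided that the gene reached 100 UMIs over both libraries. By this rule 2 of the 10, *fzd7a* and *dvl3a*, were lower and 0 were higher, against 20.6% lower and 12.7% higher of all 11756 genes with enough UMIs. The median log2 ratio of the 10 was -0.20, and that of all genes was -0.09 with a central 95% from -2.21 to 1.72. The share of called genes was thus close to the background, and 14.9% of all genes had a ratio below that of *fzd7a*. Scaling the libraries by the median of gene ratios in place of total UMIs moved every all-cell ratio up by 0.10 on the log2 scale, after which *vangl2* lay at 0.01 and *fzd7b* at 0.10.

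**Figure D1:**
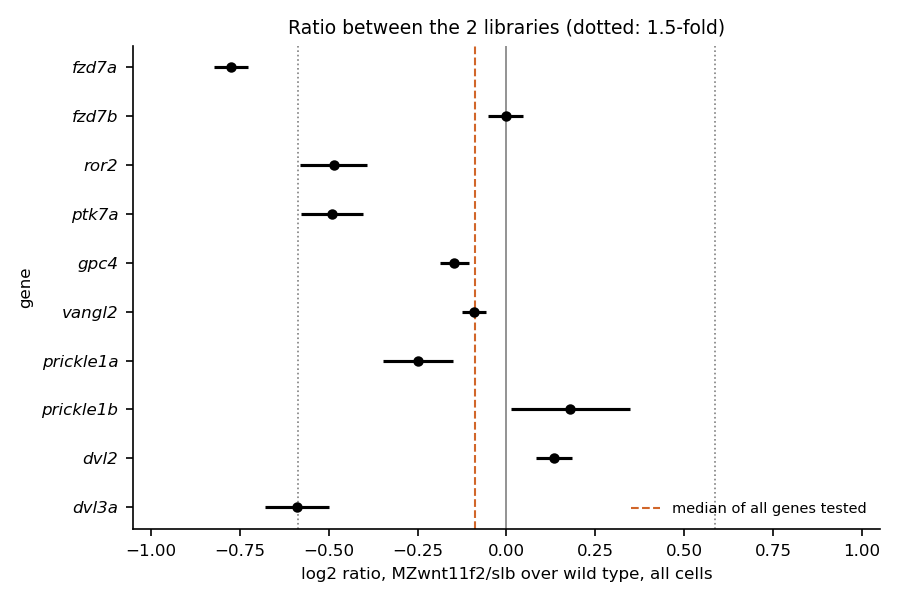
Log2 ratio of each gene between the *MZwnt11f2/slb* and the wild-type library over all cells (x axis), 1 gene per line (y axis), with exact 95% counting intervals; dotted lines mark 1.5-fold and the dashed line the median of all genes tested, -0.09. *fzd7a* (-0.77) and *dvl3a* (-0.59) lie beyond the 1.5-fold line, *ror2* and *ptk7a* (both -0.49) lie short of it, and *prickle1b* and *dvl2* lie above 0.

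Among the receptors, *fzd7a* (ENSDARG00000060004), which encodes a Frizzled 7 receptor that transduces Wnt11 signals, showed the widest range of levels across classes. Wild type had 9115 of its UMIs and *MZwnt11f2/slb* had 5712, which is 244 and 143 CPM and a log2 ratio of -0.77 (-0.82 to -0.73). In wild type its level was 684 CPM in yolk syncytial layer-like, 675 in paraxial mesoderm-like and 607 in prechordal plate-like cells. It was 222 in ectoderm-like, 200.4 in enveloping layer-like and 62.2 in ventrolateral margin-like cells. The clusters behind the 3 highest classes were mixed, as stated above. Neighbours among the 3 highest classes did not differ beyond counting error, whereas each lower step did. The highest class exceeded the lowest by 11.0-fold (9.35 to 13.0) in wild type and by 8.25-fold (7.14 to 9.56) in *MZwnt11f2/slb*, the widest spread of the 10 genes in either library. In *MZwnt11f2/slb* the same classes gave 368, 377, 345, 124, 156 and 45.7 CPM, so that the 3 highest classes stayed above the rest and the ventrolateral margin-like class stayed lowest.

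**Figure D2:**
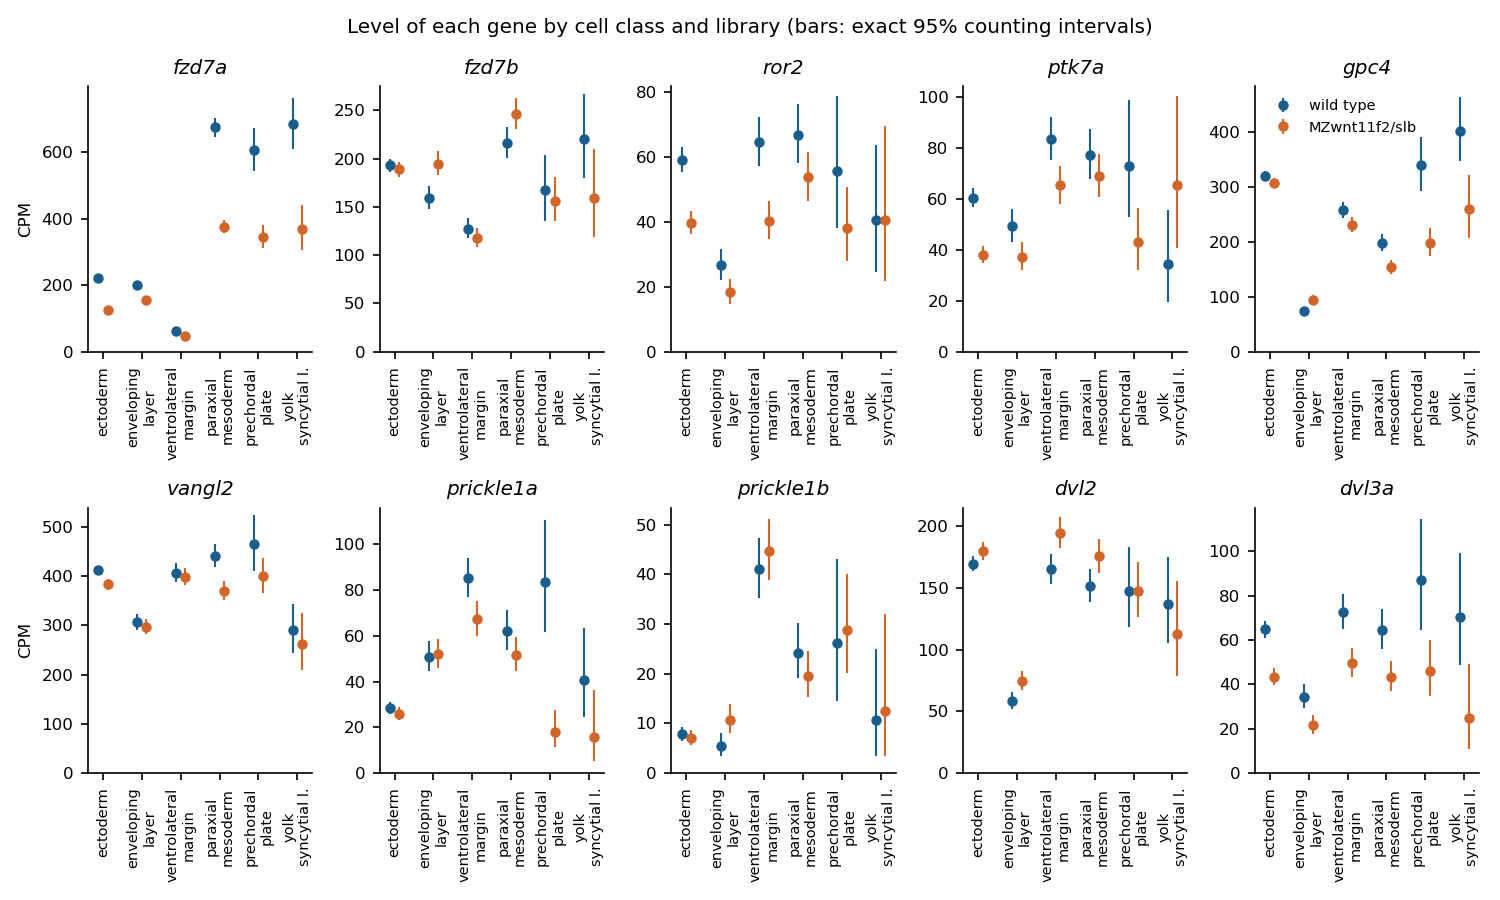
Level of each of the 10 genes in CPM (y axes, each from 0 and each with its own range) in the 6 marker-defined "-like" classes (x axes), with wild type in blue, *MZwnt11f2/slb* in orange and exact 95% counting intervals as bars. *fzd7a* spans the widest range, from 62.2 to 684 in wild type, while *vangl2* stays between 291 and 464.

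The ratio of *fzd7a* lay below 0 in 6 of 6 classes, with an interval below 0 in each. It was called lower in ectoderm-like (-0.84), paraxial mesoderm-like (-0.84), prechordal plate-like (-0.81) and yolk syncytial layer-like cells (-0.89). In enveloping layer-like (-0.36) and ventrolateral margin-like cells (-0.44) it did not reach 1.5-fold. In the ventrolateral margin-like class this ratio varied with the processing, at -0.17 after cells were thinned to an equal depth with the shallower ones left out, and -1.12 when clusters were built without correcting for the library. The paraxial mesoderm-like ratio varied as well, at -1.055 at a clustering resolution of 2 and -1.449 without correcting for the library. In cluster 13, the enveloping layer-like cluster that both libraries shared, the ratio of *fzd7a* was -0.68 (-0.94 to -0.42) and passed the fold. All 12 clusters with at least 50 cells in each library gave a ratio below 0, named or not, from -1.84 in unnamed cluster 10 to -0.44. In the ectoderm-like clusters 0, 1 and 3, which exclude the cluster led by mitochondrial genes, the ratios were -1.42, -1.18 and -0.62. Paraxial mesoderm markers moved with *fzd7a* between the libraries, their 9 genes summing to 1373 and 680 CPM in ectoderm-like, 8708 and 6870 in paraxial mesoderm-like and 3464 and 2149 in prechordal plate-like cells of wild type and *MZwnt11f2/slb*. One of the 9 was at 0 in ectoderm-like, prechordal plate-like and ventrolateral margin-like cells of both libraries. These markers were also lower in ventrolateral margin-like (3800 and 2737) and enveloping layer-like cells (484.3 and 424.5), where *fzd7a* was not called. In the ectoderm-like, paraxial mesoderm-like and prechordal plate-like classes the ventrolateral margin and stress response lists were lower too. Endoderm and yolk syncytial layer lists were higher in them. In yolk syncytial layer-like cells the paraxial mesoderm markers moved the other way, at 1240 and 1961, while *fzd7a* was lower. Other lists were lower with *fzd7a* in that class, including stress response at 5362 and 3138 CPM, enveloping layer at 2825 and 1087 and prechordal plate at 1893 and 1339. Its own markers were lower too, at 13888.8 and 10953.3, as were ventrolateral margin (1350 and 1280) and germ cell markers (436.3 and 359.1). Endoderm markers summed to 2449 and 2357. Notochord markers (551.8 and 599.5) and ectoderm markers (1865 and 1989) were higher. The stress list was also lower over all cells, at 2098 and 1637. The part of these lists in the result was not tested.

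The share of cells with a UMI was likewise lower in *MZwnt11f2/slb*. After thinning each cell to 2944 UMIs and leaving out 2215 wild-type and 1055 *MZwnt11f2/slb* cells that were shallower, *fzd7a* was detected in 79.7% (76.2 to 82.9) of paraxial mesoderm-like cells of wild type and 56.2% (52.5 to 59.9) of *MZwnt11f2/slb*. In prechordal plate-like cells the shares were 77.1% and 53.5%, and in ectoderm-like cells 44.7% and 28.4%. The class with the lowest level, ventrolateral margin-like, had 13.4% and 11.2%, at median depths of 3866 and 4535 UMIs against 3584 and 4202 in the paraxial mesoderm-like class. No class is known to lack the gene, and the part of free RNA in these shares was not tested.

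The paralogue *fzd7b* (ENSDARG00000027589) encodes the other Frizzled 7 receptor and was nearly level between libraries. It had 6748 and 7215 UMIs, or 181 and 180 CPM, with a log2 ratio of 0.00 (-0.05 to 0.05). Its range across classes was narrow, 127 to 220 CPM in wild type and 118 to 246 in *MZwnt11f2/slb*. As for *fzd7a*, the ventrolateral margin-like class was lowest in both. No class passed the fold. The ratio was 0.29 (0.15 to 0.43) in enveloping layer-like and 0.19 (0.04 to 0.33) in paraxial mesoderm-like cells, against -0.47 (-0.98 to 0.03) in yolk syncytial layer-like cells. In the shared enveloping layer-like cluster 13 it was 0.14 (-0.11 to 0.40). The paraxial mesoderm-like ratio was 0.04 (-0.10 to 0.18) at a clustering resolution of 2 and -0.05 when clusters were built without correcting for the library.

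*fzd7a* and *fzd7b* therefore made up different parts of the Frizzled 7 UMIs by class and by library. *fzd7a* contributed 57.5% (56.7 to 58.2) of their sum over all cells of wild type and 44.2% (43.3 to 45.0) of *MZwnt11f2/slb*. The share was 75.7% and 60.5% in paraxial mesoderm-like, 78.4% and 68.8% in prechordal plate-like, 53.5% and 39.7% in ectoderm-like and 32.8% and 27.9% in ventrolateral margin-like cells. Reads were counted at annotated 3′ ends, so the shares can be compared between classes and libraries, but they are not a ratio of true transcript numbers. In paraxial mesoderm-like cells both transcripts were found together in 34.7% of wild-type cells, where 33.7% would follow from the separate shares, and in 27.7% of *MZwnt11f2/slb* cells, where 26.9% would. The 2 transcripts were thus found in the same cells about as often as their separate shares give.

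The receptor *fzd7a* and the ligand did not share their lowest class. The ventrolateral margin-like class of wild type had the second highest level of *wnt11f2* at 244 CPM and the lowest of *fzd7a* at 62.2, and ectoderm-like cells, lowest in *wnt11f2* at 10.1, had 222 CPM of *fzd7a*. In paraxial mesoderm-like cells both were near their highest, at 312 and 675. *fzd7a* and *wnt11f2* were detected together in 39.8% of thinned paraxial mesoderm-like cells of wild type and 9.58% of *MZwnt11f2/slb*, against 42.7% and 10.8% from the separate shares. The corresponding values in ventrolateral margin-like cells were 4.21% and 2.65%, against 5.26% and 2.98%.

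**Figure D3:**
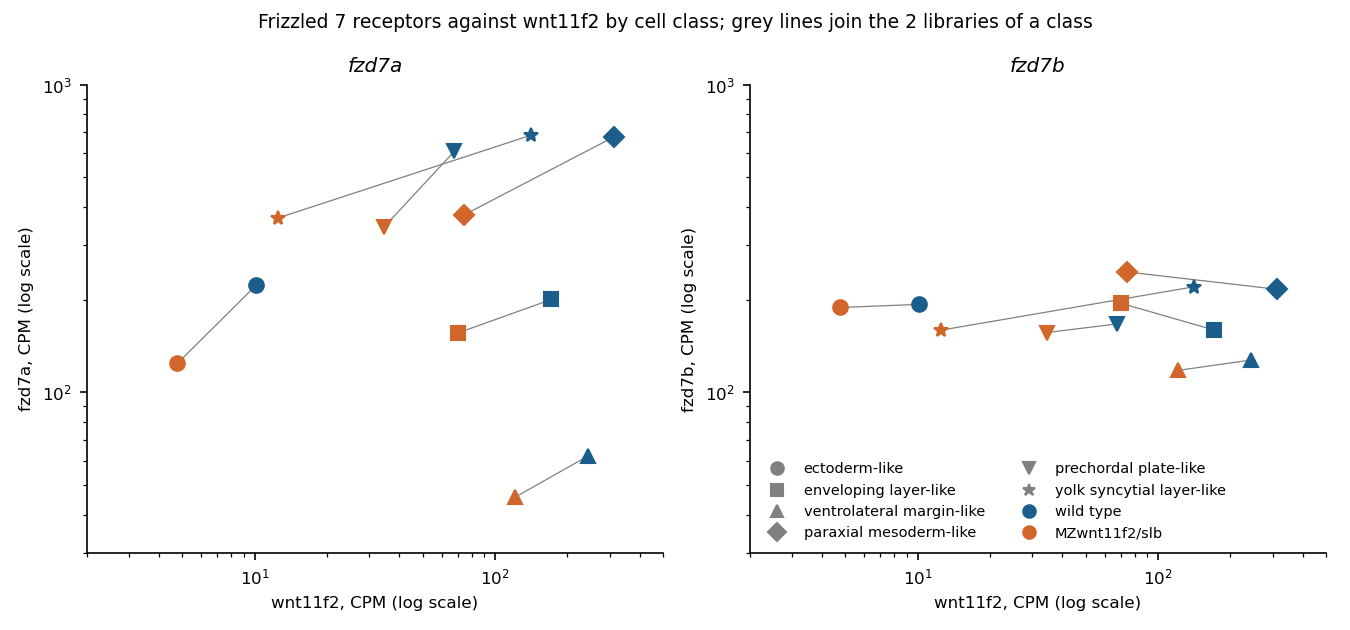
Level of *fzd7a* (left) and *fzd7b* (right) against that of *wnt11f2* in the 6 classes, all in CPM on log axes; blue points are wild type, orange points *MZwnt11f2/slb*, and grey lines join the libraries of a class. The ventrolateral margin-like class combines 244 CPM of *wnt11f2* with 62.2 of *fzd7a* in wild type, and *fzd7a* lies lower in *MZwnt11f2/slb* in all 6 classes.

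*ror2* (ENSDARG00000076227), a receptor tyrosine kinase-like co-receptor of non-canonical Wnts, had 2092 and 1600 UMIs, or 56.0 and 39.97 CPM, and a log2 ratio of -0.49 (-0.58 to -0.39). It was highest in paraxial mesoderm-like cells at 66.7 and 53.6 CPM and lowest in enveloping layer-like cells at 26.6 and 18.3. No pair of neighbouring classes differed beyond counting error in wild type. *ror2* was called lower in the ventrolateral margin-like class alone, from 64.4 to 40.1 CPM with a ratio of -0.68 (-0.95 to -0.41). The ratios of *ror2* in whole ectoderm-like (-0.57) and enveloping layer-like classes (-0.54) lay just short of the fold, and the difference between classes was not tested.

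*ptk7a* (ENSDARG00000011863) encodes a transmembrane pseudokinase that acts as a PCP co-receptor. It had 2422 and 1847 UMIs, or 64.8 and 46.1 CPM, with a ratio of -0.49 (-0.58 to -0.40). In ectoderm-like cells it was called lower, from 60.3 to 38.1 CPM with a ratio of -0.66 (-0.82 to -0.51), a call that was lost under median-of-ratios scaling (-0.54), the filter on cells (-0.56) and without clusters 6 and 9 (-0.56). Taken singly, the ectoderm-like clusters 0, 1 and 3 gave -0.64, -0.62 and -0.84, each called lower. Cluster 9, with 6 and 53 UMIs, was below the minimum. In the ventrolateral margin-like class, the highest in wild type, *ptk7a* was 83.3 and 65.2. Paraxial mesoderm-like cells gave 77.1 and 68.8, a ratio of -0.16 whose interval (-0.42 to 0.09) spans 0. Prechordal plate-like cells, with 42 and 52 UMIs, gave -0.77 (-1.38 to -0.15), below the minimum for a call. In the shared enveloping layer-like cluster 13 the ratio was -0.76 (-1.285 to -0.24) and passed the fold, while the whole class did not (-0.41). The yolk syncytial layer-like class had only 16 and 21 UMIs, with a ratio of 0.94 (-0.07 to 1.97).

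*gpc4* (ENSDARG00000015472, Knypek) is a glypican, a heparan sulfate proteoglycan that promotes Wnt11 signalling at the cell surface in zebrafish. It had 9919 and 9594 UMIs, or 265 and 240 CPM, with a ratio of -0.15 (-0.19 to -0.11). It was lowest in enveloping layer-like cells in both libraries, at 73.7 and 93.4 CPM, and the highest class exceeded this by 5.45-fold (4.54 to 6.53) in wild type and 3.29-fold (2.99 to 3.63) in *MZwnt11f2/slb*. In wild type the yolk syncytial layer-like (402), prechordal plate-like (339) and ectoderm-like (320) classes stood at the top, and neighbours among them did not differ beyond counting error. In *MZwnt11f2/slb* the same classes had 259, 198 and 307 CPM. *gpc4* was called lower in prechordal plate-like (-0.78, -1.06 to -0.50) and yolk syncytial layer-like cells (-0.63, -1.02 to -0.25), whereas its ratio in ectoderm-like cells was close to 0 (-0.06, -0.12 to 0.00). In enveloping layer-like cells it lay above 0 (0.34, 0.14 to 0.55) without reaching 1.5-fold, was 0.04 after thinning to equal depth and 0.09 (-0.18 to 0.36) in the shared cluster 13, and those cells otherwise came from different clusters in the 2 libraries. The call in prechordal plate-like cells was lost at a clustering resolution of 0.5 (-0.57), and that in yolk syncytial layer-like cells under a mean over cells (-0.54), thinning (-0.57) and another clustering seed (-0.57).

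*vangl2* (ENSDARG00000027397, Trilobite), the transmembrane protein that recruits Prickle, was the member with the most UMIs, 14893 and 14973, or 399 and 374 CPM. It varied least across classes. The highest class, prechordal plate-like with 464 and 400 CPM, exceeded the lowest, yolk syncytial layer-like with 291 and 262, by 1.596-fold (1.29 to 1.98) in wild type and 1.53-fold (1.21 to 1.95) in *MZwnt11f2/slb*. No class passed the fold, and the ratios ran from -0.25 in paraxial mesoderm-like to -0.03 in ventrolateral margin-like cells. After thinning, 68.3% of all wild-type and 65.3% of all *MZwnt11f2/slb* cells had a *vangl2* UMI.

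The paralogues *prickle1a* (ENSDARG00000040649) and *prickle1b* (ENSDARG00000045694) encode cytoplasmic LIM domain partners of Vangl2. *prickle1a* had 1772 and 1597 UMIs, or 47.4 and 39.9 CPM, with a ratio of -0.25 (-0.35 to -0.15). It was highest in ventrolateral margin-like cells in both libraries, at 85.1 and 67.1 CPM, while ectoderm-like cells held 28.3 and 25.9. In the prechordal plate-like class *prickle1a* had the lowest ratio of the 6 classes. It had 48 UMIs in the 157 wild-type cells and 22 UMIs in the 251 *MZwnt11f2/slb* cells, which is 83.5 and 18.1 CPM and a log2 ratio of -2.20 (-3.00 to -1.45). This sum of UMIs is below the minimum of 100, so the class was not called for this gene, and the ratio was chosen for mention after its value was seen. A *prickle1a* UMI was found in 20.8% (13.2 to 30.3) of thinned wild-type and 4.69% (2.27 to 8.46) of thinned *MZwnt11f2/slb* cells of this class, against 7.52% and 7.02% in ectoderm-like cells. With coarser clusters, at a resolution of 0.5, the ratio was -1.33. The yolk syncytial layer-like class, with 19 and 5 UMIs, gave -1.38 (-3.16 to 0.09).

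*prickle1b* was the member with the fewest UMIs, 544 and 660, or 14.6 and 16.5 CPM, with a ratio of 0.18 (0.01 to 0.35). It was highest in ventrolateral margin-like cells at 41.0 and 44.6 CPM and followed by prechordal plate-like (26.1 and 28.8) and paraxial mesoderm-like cells (24.2 and 19.5). In wild type the lowest level was 5.41 in enveloping layer-like cells, 7.58-fold (4.97 to 12.02) below the highest. In *MZwnt11f2/slb* it was 7.12 in ectoderm-like cells, 6.27-fold (4.88 to 8.11) below. A UMI was found in 11.3% and 11.8% of thinned ventrolateral margin-like cells, against 2.13% and 2.22% of ectoderm-like cells. Only 3 classes had enough UMIs for a call, and none passed the fold. In enveloping layer-like cells it had 25 and 54 UMIs, a ratio of 0.99 (0.28 to 1.74) below the minimum for a call, and in their shared cluster 13 the ratio was 0.33 (-0.64 to 1.37). With each class held at its wild-type share of UMIs, the all-cell ratio was 0.06.

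The Dishevelled genes encode the cytoplasmic proteins that relay the Frizzled signal. *dvl2* (ENSDARG00000056184) had 5704 and 6699 UMIs, or 153 and 167 CPM, with a ratio of 0.13 (0.08 to 0.18). Its level was 137 to 170 CPM in 5 classes of wild type and 58.6 in enveloping layer-like cells. In *MZwnt11f2/slb* it was 112 to 194 in those 5 and 74.9 in enveloping layer-like cells. No class passed the fold, and the ratios ran from -0.28 in yolk syncytial layer-like to 0.35 in enveloping layer-like cells. The intervals lay above 0 in 4 of the 6 classes and below 0 in none of the 6. In the shared enveloping layer-like cluster 13 the ratio was 0.18 (-0.16 to 0.53). At a clustering resolution of 2 it was 0.13 (-0.03 to 0.29) in paraxial mesoderm-like and 0.02 in ectoderm-like cells.

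*dvl3a* (ENSDARG00000015707) had 2369 and 1687 UMIs, or 63.4 and 42.1 CPM, and a ratio of -0.59 (-0.68 to -0.50) that lies at the threshold, at 1.504-fold. The call was lost in 5 alternatives, with ratios from -0.57 to -0.49, the last under median-of-ratios scaling. Its ratio and the whole interval lay below 0 in 6 of 6 classes, and all 12 clusters with at least 50 cells in each library gave a ratio below 0. It was called lower in enveloping layer-like (-0.67, 34.4 to 21.7 CPM) and prechordal plate-like cells (-0.91, 86.9 to 46.1). In the shared enveloping layer-like cluster 13 alone the ratio was -0.29 (-0.87 to 0.29) and was not called. Ectoderm-like (-0.58), paraxial mesoderm-like (-0.58) and ventrolateral margin-like cells (-0.54) lay just short of 1.5-fold. *dvl2* accordingly made up a larger share of the *dvl2* and *dvl3a* UMIs in *MZwnt11f2/slb*, 79.9% (79.0 to 80.7) against 70.7% (69.6 to 71.6) over all cells. The order of the libraries was the same in all 6 classes, with 62.96% to 72.4% in wild type and 76.2% to 81.8% in *MZwnt11f2/slb*. The 81.8% rested on 36 *dvl2* and 8 *dvl3a* UMIs in yolk syncytial layer-like cells. The intervals of the 2 libraries overlapped in that class and in prechordal plate-like cells.

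**Figure D4:**
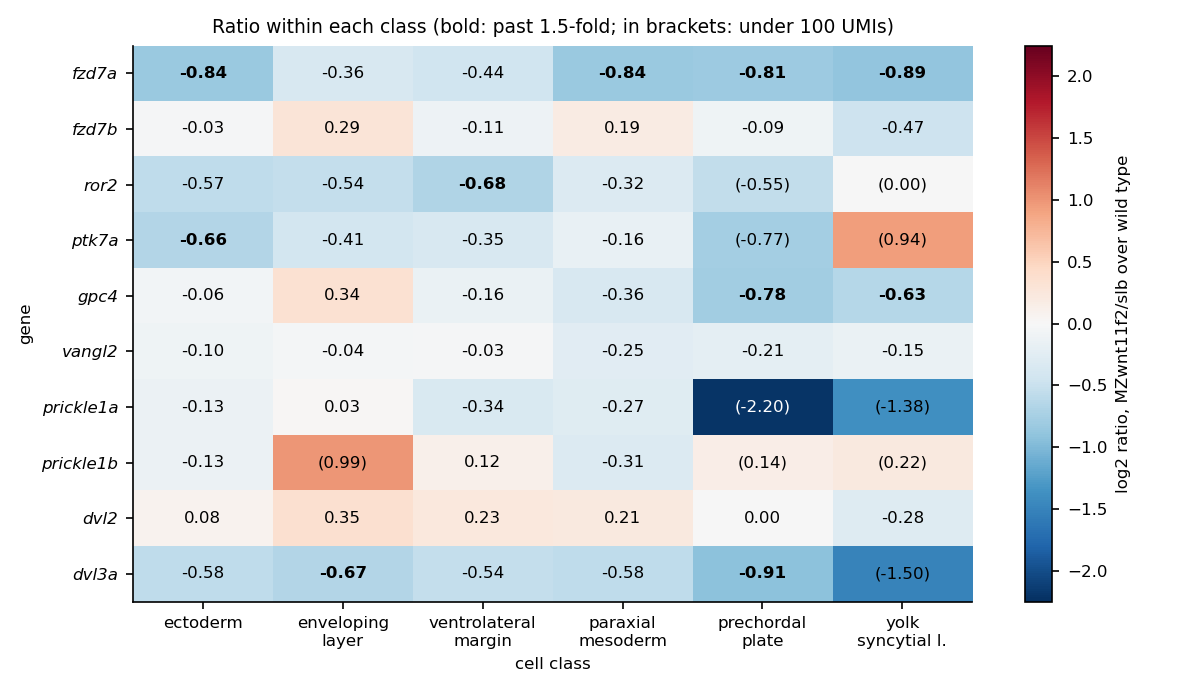
Log2 ratio of each gene (rows) between *MZwnt11f2/slb* and wild type in each "-like" class (columns), with red above and blue below 0; bold values passed the 1.5-fold rule, and values in brackets rest on fewer than 100 UMIs. *fzd7a* is bold in 4 classes, *gpc4* and *dvl3a* in 2 each, *ror2* and *ptk7a* in 1 each, and *fzd7b*, *vangl2*, *prickle1a*, *prickle1b* and *dvl2* in none.

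Of the 60 pairs of a gene and a class, 50 had enough UMIs for a call, 10 were lower in *MZwnt11f2/slb*, 0 were higher and 40 passed in neither direction. In ectoderm-like cells 2 of 10 genes were lower and 0 higher, against 21.6% and 9.43% of all genes. In enveloping layer-like cells the counts were 1 and 0 of 9 against 14.1% and 15.1%. Paraxial mesoderm-like cells had 1 and 0 of 10 against 12.3% and 12.9%, and ventrolateral margin-like cells 1 and 0 of 10 against 14.2% and 9.97%. In prechordal plate-like cells 3 of the 6 genes with enough UMIs were lower and 0 higher, against 7.75% and 13.8%. In yolk syncytial layer-like cells 2 of 5 were lower and 0 higher, against 12.9% and 11.8%. The shares lay near the background in the 4 larger classes and above it in the 2 smallest, where 4 and 5 of the 10 genes had too few UMIs and could not be counted. The *dvl3a* call in prechordal plate-like cells rested on 50 and 56 UMIs, and the *gpc4* calls were lost under some alternatives. The median ratio of the counted genes in the prechordal plate-like class was -0.50, and that of all its genes 0.06. These medians were -0.47 and 0.06 in yolk syncytial layer-like, -0.29 and 0.02 in paraxial mesoderm-like and -0.25 and -0.04 in ventrolateral margin-like cells. They were -0.13 and -0.13 in ectoderm-like and -0.04 and 0.02 in enveloping layer-like cells.

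Both libraries placed *ror2*, *vangl2*, *prickle1a* and *prickle1b* highest in the same class, which is 4 of the 10 and 3 to 6 under the alternatives. The top class did not differ from the next beyond counting error for *ror2* and *vangl2* in either library, nor for *prickle1a* and *prickle1b* in wild type. For *fzd7a* and *fzd7b* the top place passed between yolk syncytial layer-like and paraxial mesoderm-like cells, whose levels did not differ beyond counting error in wild type.

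The pattern of each gene was compared with that of 7593 other genes over 24 profiles, 12 clusters in each of 2 libraries. Pearson's correlation was taken of log2(CPM + 10), the log2 level below. This offset narrows the range of genes with low levels, such as *prickle1b*. The profiles of a library share its depth and preparation, so the coefficients are descriptions. The pattern of *fzd7a*, whose log2 level had an SD of 1.06 over the profiles, was most like that of *has2* (r = 0.89), which encodes a hyaluronan synthase, followed by *lmo1* (0.82) and *s1pr5a* (0.82). *prickle1b* was most like *prr18* (0.91), *tbxta* (0.89), the zebrafish Brachyury gene of the margin and axial mesoderm, and *spry2* (0.88), an inhibitor of receptor tyrosine kinase signalling. *prickle1a* was most like *stox2b* (0.78), *fgf24* (0.72), which encodes a fibroblast growth factor, and *arpc5a* (0.71), which encodes an Arp2/3 subunit. The nearest genes to the members with flatter patterns were *irx7* for *fzd7b* (0.74), *pdia3* for *ror2* (0.92), *CABZ01080702.1* for *ptk7a* (0.86), *jade1* for *gpc4* (0.79), *fam83d* for *vangl2* (0.88), *znf281b* for *dvl2* (0.95) and *mrps28* for *dvl3a* (0.93). The SD over the profiles ran from 0.18 for *vangl2* to 0.38 for *ptk7a* in these 7 genes, so their coefficients rest on small differences. Within wild type and within *MZwnt11f2/slb* alone, the same pairs gave 0.56 and 0.91 for *fzd7b*, 0.93 and 0.72 for *ror2* and 0.85 and 0.71 for *ptk7a*. They gave 0.82 and 0.74 for *gpc4*, 0.82 and 0.93 for *vangl2*, 0.94 and 0.96 for *dvl2* and 0.88 and 0.79 for *dvl3a*.

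In a wider list of 75 other pathway genes, 73 were found, 44 had enough UMIs over all cells, 9 were lower in *MZwnt11f2/slb* and 5 higher, with a median ratio of -0.03. The shares called were close to the 20.6% lower and 12.7% higher of all genes. Among 11 receptors and co-receptors, *fzd2* (-0.65), *fzd3b* (-2.48), *fzd10* (-0.86) and *ror1* (-0.81), the last a relative of *ror2*, were lower and *fzd3a* (1.04) was higher. *fzd3b* had 23.8 and 1.99 CPM in enveloping layer-like cells and 1.84 or less in the other classes. Those enveloping layer-like cells came mostly from different clusters in the 2 libraries. Of 5 other core components, *celsr2* (-0.63), an atypical cadherin of the PCP complex, was lower and *prickle2a* (0.87) higher. *celsr1a*, at 1498 and 1228 UMIs, was not called (-0.39). Of 2 ligands *wnt11f2* was lower, and *wnt5b*, with 105 and 86 UMIs, was not called. Of 10 modulators *invs* (-0.66) was lower and *smurf2* (0.68), a ubiquitin ligase, higher. Among 16 effectors *mapk8b* (-1.31), a Jun kinase, and *pfn2* (-1.68), a profilin, were lower, and *rac1b* (0.79), a small GTPase, was higher. Another Dishevelled gene, *dvl3b*, had 40 and 3 UMIs, below the minimum. The receptor gene *fzd8b*, itself among the prechordal plate markers, had 1511 CPM in prechordal plate-like cells of wild type and 691 in *MZwnt11f2/slb*, while its all-cell ratio was -0.07.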

How the data were processed

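The authors fixed and dissociated whole embryos with ACME, sorted DAPI-stained cells, prepared Chromium 3′ v3.1 libraries and deposited raw UMI counts of called cells. The submitters' processing notes name Cell Ranger 6.1.1 and GRCz11, and the paper's methods name another Cell Ranger version. These sources state neither the annotation release nor whether introns were counted. The sources do not say that doublets were removed by software. No doublet caller was run here, and an alternative left out the 5% of cells with the most UMIs.

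No cell was filtered. Cells were clustered (30 principal components, 20 neighbours, Leiden at resolution 1, library means removed) without the 10 genes and the wider list, so that they could not shape the clusters. The wider-list gene *fzd8b* was also a prechordal plate marker, so it counted towards the name of that cluster. A cluster was named where at least 3 markers of a list with at least 10 UMIs were at least 1.5-fold over other cells and its 10 leading genes (at least 50 UMIs) held more markers of that list than of any other, or none of any. Pooling the 3 ectoderm lists and giving no name from stress genes were decided after the clusters were seen. Counts were summed per class and library and divided by total UMIs. Levels carry exact Poisson, shares exact Clopper-Pearson, and ratios exact conditional 95% intervals. PCR and cell sampling are not covered by them. In simulated data for all cells (11729 genes), 95.7% of intervals of the 200 changed genes held the true value, 99.5% of these genes were called, and 0.269% of unchanged genes were called. The simulated counts were Poisson draws, the model that the intervals assume, so this coverage does not check that model on the real counts. The changed genes were set at a fold of 2 or more, so the share called does not apply to ratios near 1.5-fold or to single classes. Depth per library was 37370253 and 40025626 UMIs. Beside the 10 genes the text names the 3 genes most like each by correlation over clusters (at least 200 UMIs), of which the top is printed for flat patterns, and the called genes of the wider list, of which 1 is not reported here; exceptions are stated. The 10 genes, the lists and the call rules were chosen with earlier results of these data known. No sequences or coordinates are given because no genome of the build was used here. Python 3.11.15, numpy 2.4.6, scipy 1.17.1, pandas 2.3.3, scikit-learn 1.9.0, igraph 0.11.9, leidenalg 0.10.2 and matplotlib 3.10.9 were used.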

Additional observations from a re-analysis of the deposited data

Results flagged for a closer look

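The ratio of *gpc4* between the libraries did not have the same sign in every class. It was 0.34 in enveloping layer-like cells, with an interval above 0, and -0.36 in paraxial mesoderm-like, -0.78 in prechordal plate-like, -0.16 in ventrolateral margin-like and -0.63 in yolk syncytial layer-like cells, with intervals below 0. With 1 library per genotype the difference between classes was not tested. In enveloping layer-like cells, which came from different clusters in the 2 libraries, the ratio was 0.04 after thinning cells to an equal depth and 0.09 in cluster 13, which both libraries shared.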

How the results depend on the processing

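No paired analysis was possible because there was 1 library per genotype. The 2 genes called lower over all cells became 1 under median-of-ratios scaling, a mean over cells, a filter on cells (1000 UMIs or more, mitochondrial share of 10% or less), leaving out the 5% of cells with the most UMIs, and leaving out clusters 6 and 9, the last an alternative chosen after seeing the data. In these settings *dvl3a*, at 1.504-fold, passed under the threshold, and *fzd7a* ranged from -0.81 to -0.67. The count was 4 at a log2 limit of 0.32 and 0 at a fold of 2. The median ratio of the 10 genes was -0.20, and -0.10 under median-of-ratios scaling, whose shift was 0.10 over all cells and 0.12 in ectoderm-like cells. The 10 called pairs of gene and class became 23 at a log2 limit of 0.32 and 0 at a fold of 2, and numbered 7 to 15 elsewhere. No called value changed sign. Of 80 all-cell values 69 moved by less than their counting interval, and 676 of 710 within classes. Depth limits the prechordal plate-like and yolk syncytial layer-like classes most, where several genes had under 100 UMIs.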

Other observations

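At a finer resolution of 2 a cluster carried endoderm markers, with 171 wild-type and 255 *MZwnt11f2/slb* cells. It had the highest level of *fzd7a* of any class described, 875 and 468 CPM in wild type and *MZwnt11f2/slb*, a log2 ratio of -0.90 (-1.08 to -0.73). *fzd7b* was 218 and 288 there, a ratio of 0.40 (0.11 to 0.70), and *gpc4* 203 and 142, a ratio of -0.51 (-0.85 to -0.17). *prickle1a* had 31 and 20 UMIs in these cells, or 46.9 and 17.9 CPM, a ratio of -1.39 (-2.28 to -0.53) below the minimum for a call.

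The unnamed cluster 5, led by *foxd3*, *admp* and *foxb1a*, held 557 wild-type and 701 *MZwnt11f2/slb* cells. Its *prickle1a* level was 115 CPM in wild type and 70.9 in *MZwnt11f2/slb*, a ratio of -0.70 (-0.96 to -0.44), beside 85.1 and 67.1 in ventrolateral margin-like cells, the highest named class. *fzd7a* was 134 and 61.2 there, a ratio of -1.13 (-1.39 to -0.87). Primordial germ cell-like cells numbered 28 and 27 and held 40 and 35 UMIs of *vangl2* and 31 and 33 of *gpc4*.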
